A study of Mus musculus with 3 samples.

Results

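Complement is a cascade of plasma and tissue proteins that tags and lyses targets and calls in leukocytes. In the classical pathway C1q, built of the chains A, B and C, binds a target and activates the attached proteases C1r and C1s, which cut C4 and C2. The resulting enzyme cuts C3, the step on which all pathways converge and which factor B amplifies in the alternative pathway. C1 inhibitor (Serping1) blocks C1r and C1s in fluid, and CD55 speeds the decay of the C3-cutting enzymes on the cell surface. Most plasma complement is made in liver, whereas C1q in tissue is known mainly from macrophages, and endothelium and fibroblasts can make C1r, C1s, C3, C4 and C1 inhibitor.

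The genes described here are 9 complement components and regulators (C1qa, C1qb, C1qc, C1ra, C3, C4b, Cfb, Serping1 and Cd55), taken by symbol from 54532 genes in the deposited files, and all 9 were found. The study sequenced RNA of cells from the dorsal dura mater of mice 12 days after inoculation of 4T1-DM cells, a dural metastasis model from the mouse mammary carcinoma line 4T1. The cells are labelled as lacking CD45 and carrying CD31 and podoplanin, a surface pattern used for lymphatic endothelium. The mice, which all carried the tumour cells, had received PBS, ZOL or ZOL with Ang2, names that the labels do not expand, and the labels give no strain or age. Cells of 6 mice were pooled into the only library of each group, so no test between groups was possible and a pool may differ from another pool in ways that cannot be seen here. Every interval below covers counting error alone.

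The libraries differed in depth and make-up in ways that touch each result. Recovery from the RPKM values gave 1675532 reads in PBS, 16586760 under ZOL and 9204901 under ZOL+Ang2. Satellite-type repeat models held 20.4% of the PBS reads, 0.974% under ZOL and 3.25% under ZOL+Ang2. Of 2735 genes with at least 50 CPM (scaled to library size) in both other libraries, 375 (13.7%) had 0 reads in PBS, so a 0 there is common among genes of that level. Of 8 lymphatic markers, Lyve1 had 0 reads in all 3 libraries and Prox1, the fate-setting factor, had 2 reads in PBS and 0 in the others, while the rest were present unevenly. Pdpn, which encodes the podoplanin used for selection, stood at 18.8, 67.5 and 171 CPM (PBS, ZOL, ZOL+Ang2), Flt4 at 0.538, 70.9 and 23.8, and Mmrn1 at 155, 11.5 and 12.0. Pecam1, which encodes CD31, stood at 1.08 CPM in PBS, 475 under ZOL and 177 under ZOL+Ang2. Ptprc, which encodes the excluded CD45, was found at 156, 25.1 and 76.1 CPM.

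The 9 genes did not move as a block. Together they held 184 CPM in PBS, 452 under ZOL and 1496 under ZOL+Ang2, and a different gene led in each library. C1q chains made up 96.8% of the PBS reads on the 9 genes (330 of 341, exact 95% binomial interval 94.3% to 98.4%), 0.577% of those in ZOL (41 of 7103, 0.415% to 0.782%) and 47.8% of those in ZOL+Ang2 (6276 of 13117, 47.0% to 48.7%). In ZOL the place of C1q was taken by C4b, with 43.8% of these reads (42.6% to 44.9%), and by Serping1, with 32.4% (31.3% to 33.5%). Serping1 kept nearly that share in ZOL+Ang2, at 32.1% (31.3% to 32.9%).

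**Figure D1:**
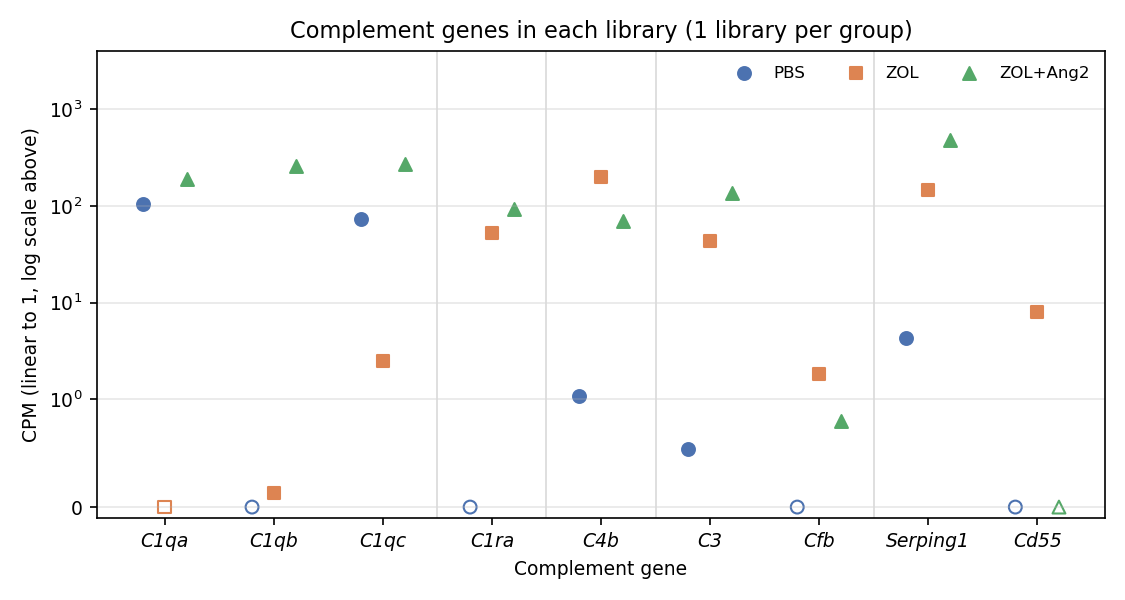
CPM of the 9 complement genes (x axis, ordered by role) in the PBS (circles), ZOL (squares) and ZOL+Ang2 (triangles) libraries, on an axis that is linear up to 1 CPM and logarithmic above; each point is 1 library and open symbols mark 0 reads. C1qb and C1qc are highest in ZOL+Ang2, as is C1qa on this scale (on the RPKM as deposited it is higher in PBS, log2 ratio -0.27), C4b is highest in ZOL at 198 CPM, and Serping1 is the highest point at 479.7 CPM.

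On the scale that allows genes to be compared within a library, RPKM (reads per kilobase of exon, set to library size), the order of the genes also changed. In PBS C1qa led at 166 RPKM, followed by C1qc at 63.3 and, far below, Serping1 at 3.07, C4b at 0.313 and C3 at 0.174. The other 4 genes (C1qb, C1ra, Cfb and Cd55) are listed at 0 RPKM in PBS. In ZOL Serping1 led at 41.8 RPKM, followed by C4b at 23.1, C1ra at 11.6, C3 at 5.56, Cd55 at 1.09, C1qc at 0.853, Cfb at 0.434 and C1qb at 0.0776, with C1qa at 0. In ZOL+Ang2 the first place was held by C1qb at 175 RPKM, with Serping1 at 154, C1qa at 136 and C1qc at 105 close behind. The rest followed at 23.3 for C1ra, 19.8 for C3, 9.19 for C4b, 0.211 for Cfb and 0 for Cd55. With no replicates, the spread that would say which neighbours in these orders differ is unknown.

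The C1q genes lie side by side on the minus strand of mouse chromosome 4 (mm10), with C1qb (ENSMUSG00000036905; 136880129 to 136886187) 3.62 kb from C1qc (ENSMUSG00000036896; 136889804 to 136893065), which lies 2.85 kb from C1qa (ENSMUSG00000036887; 136895917 to 136898803). C1qa, the A chain, had 193 reads (104 CPM) in PBS, 0 under ZOL and 1662 (189.5 CPM) under ZOL+Ang2. C1qb, the B chain, had 0, 2 and 2239 reads, or 0, 0.127 and 255 CPM. C1qc, the C chain, had 137, 39 and 2375 reads, or 73.7, 2.48 and 271 CPM. The 3 chains were thus present together in ZOL+Ang2 alone, and all 3 were at or near 0 in ZOL. In PBS the A and C chains were present without the B chain.

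Between ZOL+Ang2 and ZOL, C1qa was at least 992-fold higher (against a floor of 3 reads in ZOL, which is 0.191 CPM), C1qc 109-fold higher (95% counting interval 79.5 to 154), and C1qb 2004-fold higher (554 to 16558, from 2 ZOL reads). Between ZOL and PBS, C1qa was at least 543-fold lower and C1qc 29.7-fold lower (20.7 to 43.5), while C1qb had too few reads in either library for a fold. Between ZOL+Ang2 and PBS, C1qb was at least 158-fold higher (floor of 3 reads in PBS, 1.61 CPM) and C1qc 3.67-fold higher (3.09 to 4.40). C1qa differed less, at 1.82-fold higher (1.57 to 2.13), and its direction turned with the scaling. Its log2 ratio, with the same prior, was 0.84 on the CPM used here and -0.27 on the RPKM as deposited. The ZOL library, where the C1q genes were at or near 0, was the deepest of the 3. Of 589 genes with at least 100 CPM in both PBS and ZOL+Ang2, 3 had 0 reads in ZOL, of which C1qa is 1. That set shares C1qa's own levels in the other libraries, so it is a narrow base. Of 1390 genes with at least 100 CPM in PBS, whatever their level in ZOL+Ang2, 130 (9.35%) had 0 reads in ZOL.

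The make-up of the C1q reads themselves differed between libraries. Shares are of reads and are not corrected for exon length (C1qa 1040, C1qb 1088 and C1qc 1931 bases). In ZOL+Ang2 the A, B and C chains held 26.5% (25.4% to 27.6%), 35.7% (34.5% to 36.9%) and 37.8% (36.6% to 39.1%) of 6276 C1q reads. In PBS they held 58.5% (53.0% to 63.9%), 0% and 41.5% (36.1% to 47.0%) of 330 reads. The exact interval for 0 of 330 allows a B chain share of up to 1.11%. In ZOL 39 of 41 reads fell on C1qc, 95.1% (83.5% to 99.4%). The B chain share in PBS was therefore far below that in ZOL+Ang2 beyond counting error, in a library in which 239 of 2027 genes (11.8%) with at least 100 CPM in ZOL+Ang2 had 0 reads. None of the 50-base windows in transcripts of these 3 genes occurs in a transcript of another gene, and no other annotated exon overlaps theirs.

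**Figure D2:**
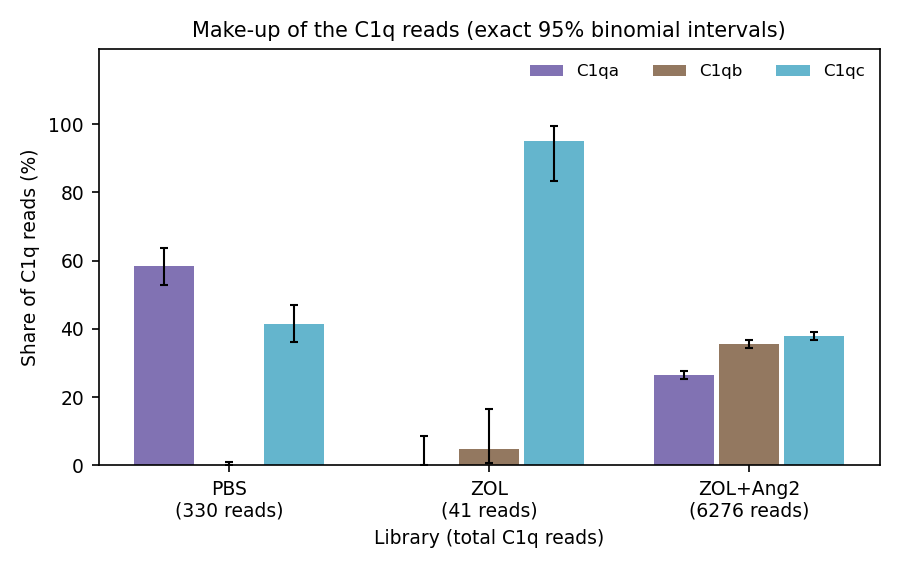
Share of the C1q reads (y axis, percent) that fell on C1qa, C1qb and C1qc in each library, with exact 95% binomial intervals that cover counting error only; the number of reads behind each library stands under its name. Shares are not corrected for exon length. The 3 chains hold 26.5% to 37.8% each in ZOL+Ang2, whereas C1qb has 0 of 330 reads in PBS and C1qc has 39 of 41 in ZOL.

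Because C1qb and C1qc are adjacent and were both at least 100-fold higher in ZOL+Ang2 than in ZOL by their point values, the stretches before their starts are shown, as RefSeq gives them for GRCm38.p6 on the minus strand, 5′ to 3′. The table used has the start of 5 of the 9 genes (C1qb, C1qc, C1ra, C3 and Cd55). The C1qb stretch is chr4:136886201-136886450, 250 bases, and the C1qc stretch is chr4:136893066-136893164, 99 bases, ending where the first GENCODE exon begins. Capitals mark AGGAAG (an ETS-type core, the class of sites read by the myeloid factor PU.1) and TGCTGA (part of the site read by MAF factors), each searched on both strands, and no matches overlapped.
C1qb: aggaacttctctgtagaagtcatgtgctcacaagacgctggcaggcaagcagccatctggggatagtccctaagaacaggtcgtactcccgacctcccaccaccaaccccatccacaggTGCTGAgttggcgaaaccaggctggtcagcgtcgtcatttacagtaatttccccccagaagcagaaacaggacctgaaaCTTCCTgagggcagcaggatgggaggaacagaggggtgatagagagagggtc
C1qc: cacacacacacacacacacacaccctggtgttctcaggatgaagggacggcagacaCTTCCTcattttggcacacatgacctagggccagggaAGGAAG

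The C1qb stretch holds 1 AGGAAG match, on the reverse strand with its first base at -52 from the RefSeq start, from which all positions are counted, and 1 TGCTGA match at -131. C1qc holds 2 AGGAAG matches, at -157 and, on the reverse strand, at -194, and no TGCTGA within 250 bases. An AGGAAG match occurs in 29.5% and a TGCTGA match in 16.1% of 32851 mouse promoter windows of 250 bases, so both are common. In the same windows C3 holds 1 TGCTGA match and 1 TTGCNNAA match (a C/EBP-type pattern found in 9.56% of windows) at -45, and Cd55 holds 2 TGCTGA matches. C1ra holds none of the 5 patterns searched, which also included TATAAA (12.4% of windows) and TTCNNNGAA (7.02%). A match is a run of letters and was not tested as a site.

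C1ra, the protease that C1q activates first, has an exon length of 2981 bases and lies on chromosome 6 (ENSMUSG00000055172; 124512405 to 124523443, plus strand). It had 0 reads in PBS, 820 (52.2 CPM) under ZOL and 816 (93.0 CPM) under ZOL+Ang2. It was therefore at least 32.4-fold higher in ZOL than in PBS and 1.78-fold higher in ZOL+Ang2 than in ZOL (1.61 to 1.97), which is within 2-fold. Its near copy C1rb shares 48.0% of C1ra's 50-base windows, so reads may be divided wrongly between them. C1rb stood at 0, 20.4 and 6.16 CPM, and C1ra held 71.9% of the reads of the pair in ZOL (69.2% to 74.5%) and 93.8% in ZOL+Ang2 (92.0% to 95.3%). With both copies summed, the log2 ratio of ZOL+Ang2 to ZOL was 0.42 in place of 0.78.

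C1s1, the partner protease that cuts C4 and C2, followed a steeper course than C1ra. It stood at 0 CPM in PBS, 22.9 under ZOL and 186 under ZOL+Ang2, which is 8.11-fold higher in ZOL+Ang2 than in ZOL (7.23 to 9.12). Of its 50-base windows, 35.1% occur in other genes and 21.8% in its copy C1s2, so its reads too may be divided wrongly. C1s2 was lower but ordered alike, at 0, 3.69 and 23.4 CPM. C1r and C1s genes therefore had no reads in PBS, the library in which C1qa and C1qc had 330 reads together.

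C4b (ENSMUSG00000073418; chromosome 17, 34728380 to 34743882, minus strand) encodes C4, the first substrate of C1s, and was highest in ZOL, as were the far lower Cd55 and Cfb. It had 2 reads (1.08 CPM) in PBS, 3109 (198 CPM) under ZOL and 614 (70.0 CPM) under ZOL+Ang2. The fold was 184-fold higher in ZOL than in PBS (50.9 to 1520, from 2 PBS reads) and 2.83-fold lower in ZOL+Ang2 than in ZOL (2.59 to 3.09). Its copy C4a shares 34.6% of C4b's 50-base windows, but took few reads, at 0, 6.24 and 2.17 CPM. C4b held 96.9% of the reads of the pair in ZOL (96.3% to 97.5%) and 97.0% in ZOL+Ang2 (95.4% to 98.2%). C2, which joins C4b in the classical C3-cutting enzyme, went the other way at low level, with 0, 3.50 and 14.4 CPM.

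C3 (ENSMUSG00000024164; chromosome 17, 57203970 to 57228136, minus strand), the central component, stood lowest in PBS and highest in ZOL+Ang2. It had 1 read (0.538 CPM) in PBS, 677 (43.1 CPM) under ZOL and 1197 (136 CPM) under ZOL+Ang2. It was 80.1-fold higher in ZOL than in PBS, an interval of 14.3 to 3170 resting on 1 PBS read, and 3.17-fold higher in ZOL+Ang2 than in ZOL (2.88 to 3.48). C3 and C4b, both of the same protein family, thus differed between ZOL and ZOL+Ang2 in opposite directions.

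Cfb (ENSMUSG00000090231; chromosome 17, 34856374 to 34862518, minus strand), the factor B gene of the alternative pathway, was barely detected. It had 0, 29 and 7 reads, or 0, 1.85 and 0.798 CPM, and the ZOL+Ang2 to ZOL ratio was 2.31-fold lower with an interval that includes no difference (0.992 to 6.26). Its low level has a limit in the annotation, since 79.5% of its exon bases are shared with exons of the same-strand model Gm20547, which has 0 reads in each library. The sources used here do not say how reads on both genes were handled, and Cfb may be undercounted. C2, 0.085 kb away, shares 42.8% of its exon bases with the same model.

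Serping1 (ENSMUSG00000023224; chromosome 2, 84765387 to 84775444, minus strand) encodes C1 inhibitor and reached the highest CPM of the 9 genes. It had 8 reads (4.31 CPM) in PBS, 2302 (147 CPM) under ZOL and 4207 (479.7 CPM) under ZOL+Ang2. The folds were 34.1-fold higher in ZOL than in PBS (17.3 to 79.0) and 3.27-fold higher in ZOL+Ang2 than in ZOL (3.11 to 3.44). The latter is close to the 3.17-fold of C3. No 50-base window of Serping1 or of C3 occurs in another gene.

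Cd55 (ENSMUSG00000026399; chromosome 1, 130439027 to 130462744, minus strand), the decay-accelerating membrane regulator, was seen in ZOL alone. It had 0 reads in PBS, 125 (7.96 CPM) under ZOL and 0 under ZOL+Ang2, which allows up to 1.61 CPM in PBS and 0.342 CPM in ZOL+Ang2 by counting error. The ZOL level was thus at least 4.93-fold above PBS and ZOL+Ang2 was at least 23.3-fold lower than ZOL. Its copy Cd55b, which with other genes shares 9.12% of Cd55's windows, had 4, 3 and 0 reads.

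**Figure D3:**
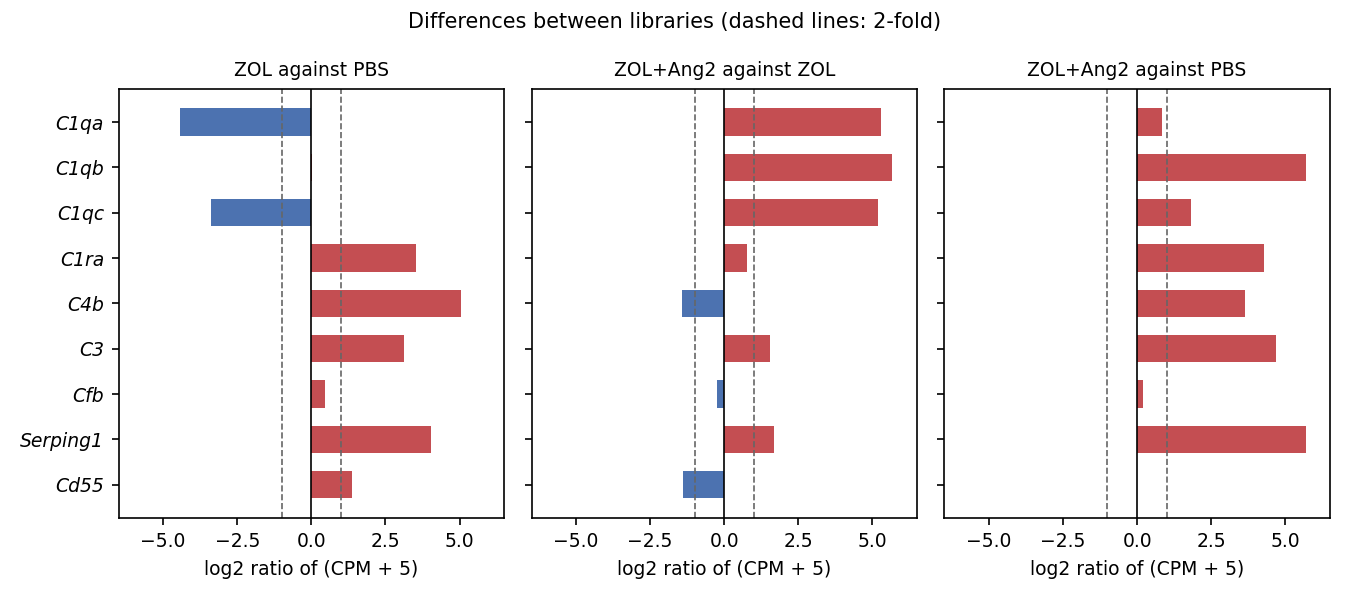
Log2 ratio, with 5 added to each CPM, for each of the 9 genes in the 3 comparisons, 1 library against 1 library, with dashed lines at 2-fold; red bars are higher and blue bars lower in the library named first. The C1q genes carry the longest bars in ZOL+Ang2 against ZOL, between 5.20 and 5.67, while C4b stands at -1.44.

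Counted over the list, 7 of the 9 genes had a mean of at least 10 CPM and could be set beside other genes of that level; Cfb and Cd55 could not. ZOL against PBS asked what set the selected cells apart after ZOL. There 4 of the 7 were at least 2-fold higher on the log2(CPM + 5) scale (C1ra, C3, C4b and Serping1) and 2 lower (C1qa and C1qc). Of all 10942 genes of that level 49.2% were higher and 29.4% lower, so these counts are near the background. The 4 higher genes passed the level filter through ZOL and ZOL+Ang2 and the 2 lower ones through PBS and ZOL+Ang2, so neither group could have gone the other way. The median log2 ratio was 3.12 for the 7 genes and 0.94 for all genes, and other scaling put the latter at -0.17 (median-of-ratios) or -0.83 (RPKM as deposited). Median-of-ratios scaling also turned the split of all genes to 37.4% higher and 41.7% lower, and the RPKM as deposited to 32.2% and 48.4%.

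ZOL+Ang2 against ZOL asked what differed when Ang2 was added. Here 5 of the 7 were at least 2-fold higher (C1qa, C1qb, C1qc, C3 and Serping1), against 16.2% of all genes, and 1 was lower (C4b), against 24.8%. The median log2 ratio was 1.68 for the 7 and -0.02 for all genes. C1qb passed the level filter through ZOL+Ang2 alone and C1qa and C1qc through ZOL+Ang2 and PBS, so none of the 3, at or near 0 in ZOL, could have been called lower, and the count gives no support. At 4-fold 3 of the 7 remained higher, the C1q genes, against 6.05% of all genes, and 0 were lower, against 13.5%.

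ZOL+Ang2 against PBS shares its libraries with the former comparisons. In it 6 of the 7 genes were at least 2-fold higher, all but C1qa, against 44.2% of all genes, and 0 were lower, against 33.1%. C1qb, C1ra, C3, C4b and Serping1 had 0 to 8 reads in PBS and passed the level filter without it, so they could not have been called lower, and the count gives no support. The median was 4.29 for the 7 genes and 0.48 for all. With the RPKM as deposited, C1qc was within 2-fold (log2 ratio 0.71, against 1.81) and 5 remained. All genes then split into 31.5% higher and 49.2% lower, and into 36.5% and 42.9% under median-of-ratios scaling.

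The wider cascade was described with 54 complement genes, of which 22 had a mean of at least 10 CPM, among them 15 that are not of the 9. Of those 15, ZOL stood 2-fold or more above PBS for 5 and below it for 8, beside 49.2% and 29.4% of all genes. ZOL+Ang2 stood above ZOL for 4 and below it for 4, beside 16.2% and 24.8%, and above PBS for 5 and below it for 7, beside 44.2% and 33.1%. The median log2 ratios of the 15 were -1.20, 0.06 and -0.70, and those of all genes 0.94, -0.02 and 0.48. Each comparison thus held other genes of the cascade in both directions. Masp1, Colec10, Itgax, Csmd1 and C6 passed the level filter only through PBS. Vtn passed it only through ZOL, and C1s1, Cfp and Cfi only through ZOL+Ang2. The direction of such a gene against its high library was fixed by the filter, so these counts and medians give no support.

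**Figure D4:**
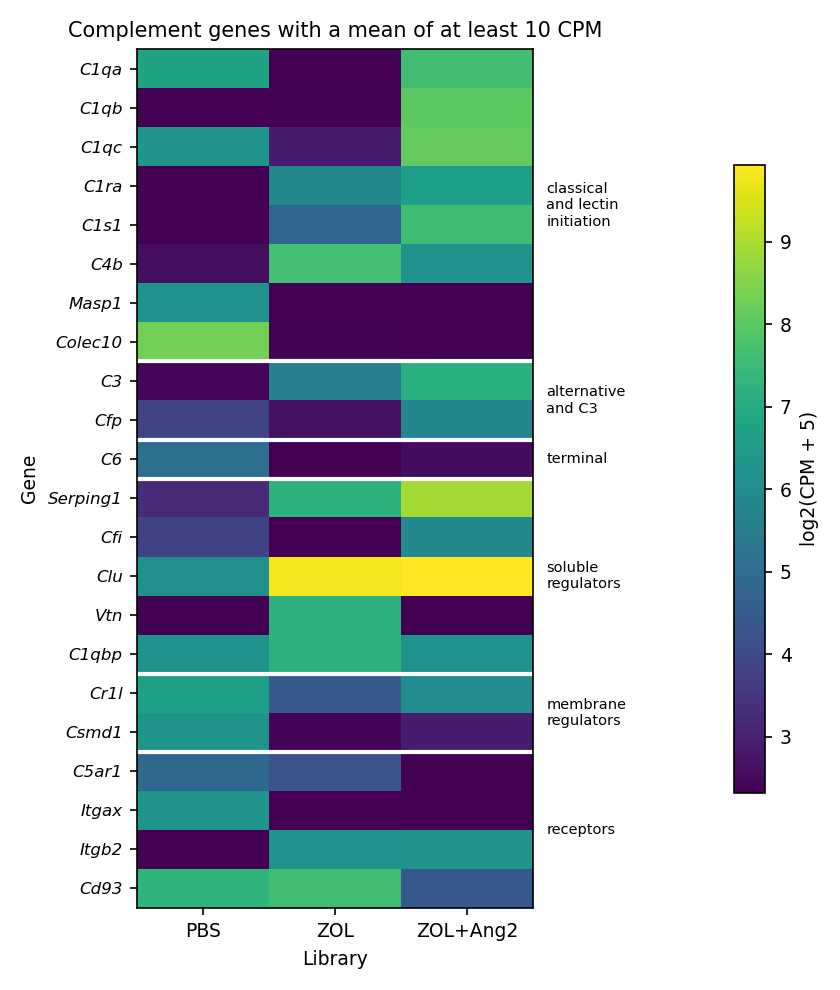
Levels as log2(CPM + 5) (colour) of the 22 complement genes whose mean reached 10 CPM, in rows grouped by role, in the 3 libraries (columns), 1 library per group. Masp1, Colec10 and Itgax have their level in PBS, Vtn in ZOL, and C1qb, C1qc, C1s1 and Serping1 their highest level in ZOL+Ang2.

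Among lectin pathway genes, Colec10, a collectin known from liver, stood at 314 CPM in PBS, 0.127 under ZOL and 0 under ZOL+Ang2. Masp1, a protease of that pathway, stood at 69.4 CPM in PBS and had 0 reads in the others. Below the level filter, the other protease Masp2 stood at 0, 4.08 and 0 CPM and the collectin Colec11 at 0, 0 and 7.53. The terminal gene C6 stood at 30.1, 0 and 0.912 CPM, and 6 of the 7 terminal genes had reads in PBS, 1 under ZOL and 5 under ZOL+Ang2. These PBS levels came with a liver list of 10 genes at 879 CPM in PBS, 21.4 under ZOL and 38.5 under ZOL+Ang2. Of this sum Cyp2e1 alone held 820 CPM in PBS, while the liver genes Apoa2, Trf and Ahsg had 0 reads there. Fgb was also highest in PBS, at 36.6, 0 and 0.456 CPM. Alb (7.53, 0.637 and 12.9 CPM) and Ttr (1.08, 9.68 and 13.0) were highest in ZOL+Ang2, so the list did not move as 1. The part of liver RNA in the complement values was not tested. Properdin (Cfp), which stabilises the alternative pathway enzyme and is known from myeloid cells, stood at 9.69, 1.40 and 52.0 CPM, lowest in ZOL like C1qa and C1qc.

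Soluble regulators besides Serping1 followed several courses. Clusterin (Clu), which binds the terminal complex, stood at 65.7 CPM in PBS, 881 under ZOL and 977 under ZOL+Ang2. Vitronectin (Vtn), another inhibitor of the terminal complex, was seen in ZOL alone, at 143 CPM, with 0 reads in the others. Factor I (Cfi), which cuts C3b and C4b with the help of cofactors, was the reverse of it, at 9.15, 0 and 56.2 CPM. C1qbp, a mainly mitochondrial protein that can bind C1q, stood at 70.0, 148 and 69.1 CPM. In RPKM as deposited it was highest in PBS, at 41.1, 34.7 and 18.3.

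On the membrane side, Cr1l, which encodes the rodent C3 regulator Crry, stood at 97.9, 17.3 and 58.4 CPM, the libraries again in the order PBS, ZOL, ZOL+Ang2. Csmd1, a large membrane inhibitor known from brain, stood at 71.6, 0.318 and 2.62 CPM. Cd59a, which blocks the terminal pore, was below the level filter and high in ZOL alone like Cd55, at 0, 21.6 and 0.456 CPM. Among receptors, Cd93, a surface protein of endothelium and myeloid cells once described as a C1q receptor, stood at 154, 189 and 16.2 CPM and was 11.7-fold lower in ZOL+Ang2 than in ZOL (9.87 to 13.9). The C5a receptor C5ar1 stood at 25.3, 14.2 and 0 CPM. The integrin chain Itgb2 stood at 0, 70.3 and 73.5 CPM, its partner Itgax at 72.7, 0 and 0, and its partner Itgam had 0 reads in each library.

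Markers of other cell types moved between the same libraries. The macrophage list of 14 genes, which holds no complement gene, summed to 1054 CPM in PBS, 83.5 under ZOL and 1216 under ZOL+Ang2, while the C1q genes summed to 178, 2.61 and 716. Lyz2, which neutrophils also express, held 737, 68.8 and 929 of these. Of the 14 genes, 5 had 0 reads in PBS (Cd68, Cd163, Aif1, Fcgr1 and Folr2), 8 in ZOL (Csf1r, Cd68, Aif1, Ms4a7, Fcgr1, Cx3cr1, Mertk and Folr2) and 3 in ZOL+Ang2 (Cd68, Ms4a7 and Folr2). Csf1r, a defining macrophage receptor, stood at 1.08, 0 and 20.2 CPM, and Adgre1 at 28.0, 1.40 and 33.8. Other members were higher in PBS than in ZOL+Ang2, with Mertk at 110, 0 and 4.45 CPM, Ms4a7 at 72.7, 0 and 0, and Pf4 at 30.7, 2.42 and 21.2. Of the 7 list members whose mean reached 10 CPM, 7 were at least 2-fold lower in ZOL than in PBS, against 29.4% of all genes. In ZOL+Ang2, 5 were higher than in ZOL, against 16.2% of all genes. Compared with PBS, 0 were higher in ZOL+Ang2 and 2 lower, against 44.2% and 33.1%. Mertk and Ms4a7 passed the level filter through PBS alone, so neither could have been called higher than PBS, and these counts give no support. Without Lyz2 the list summed to 317, 14.7 and 287 CPM. The neutrophil list of 10 summed to 364, 40.7 and 792 CPM, with 4, 4 and 2 genes at 0. The C1q genes and both lists were thus lowest in ZOL, while the order of PBS and ZOL+Ang2 for the macrophage list turned on Lyz2 and on the scaling. On the RPKM as deposited Lyz2 was higher in PBS (929) than in ZOL+Ang2 (528). The neutrophil members then differed in order, with Retnlg at 513 in PBS and 18.5 in ZOL+Ang2 and Camp at 2.36 and 154. The order of PBS and ZOL+Ang2 for the neutrophil sum is thus given for CPM only. The part of macrophages and neutrophils in the C1q values was not tested.

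The fibroblast list of 12 genes summed to 372 CPM in PBS, 1063 under ZOL and 11377 under ZOL+Ang2. In CPM this is the order seen for C1ra, C1s1, C3 and Serping1, though not each list member had it. The list's defining collagens Col1a1 and Col1a2 stood at 189 and 58.1 CPM in PBS, 53.5 and 93.9 under ZOL and 4280 and 3333 under ZOL+Ang2. Of the 12 genes 5, 2 and 3 had 0 reads. Mgp held 6.46, 522 and 570 CPM of the sums and Dcn 6.46, 179 and 435, while Col3a1 was level between PBS and ZOL (89.9 and 88.9). In RPKM as deposited, Col3a1 was higher in PBS (15.2) than in ZOL (6.00) and Mgp lower (9.02 and 292). The pan-endothelial list of 12 summed to 1585, 2929 and 1045 CPM with reads on all 12 in each library. On this scale it was highest in ZOL like C4b, Cd55 and Cd93. On the RPKM as deposited Cd93 was higher in PBS (38.4) than in ZOL (18.8). The list members then differed in order, with Emcn at 84.7 in PBS and 41.0 in ZOL and Esam at 89.0 and 141. The epithelial and carcinoma list of 9 summed to 689, 5581 and 5507 CPM, and the lymphatic list of 8 to 309, 174 and 221. The part of these cells in the complement values was not tested. In pooled cells, fewer cells of a type and less RNA per cell cannot be told apart.

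**Figure D5:**
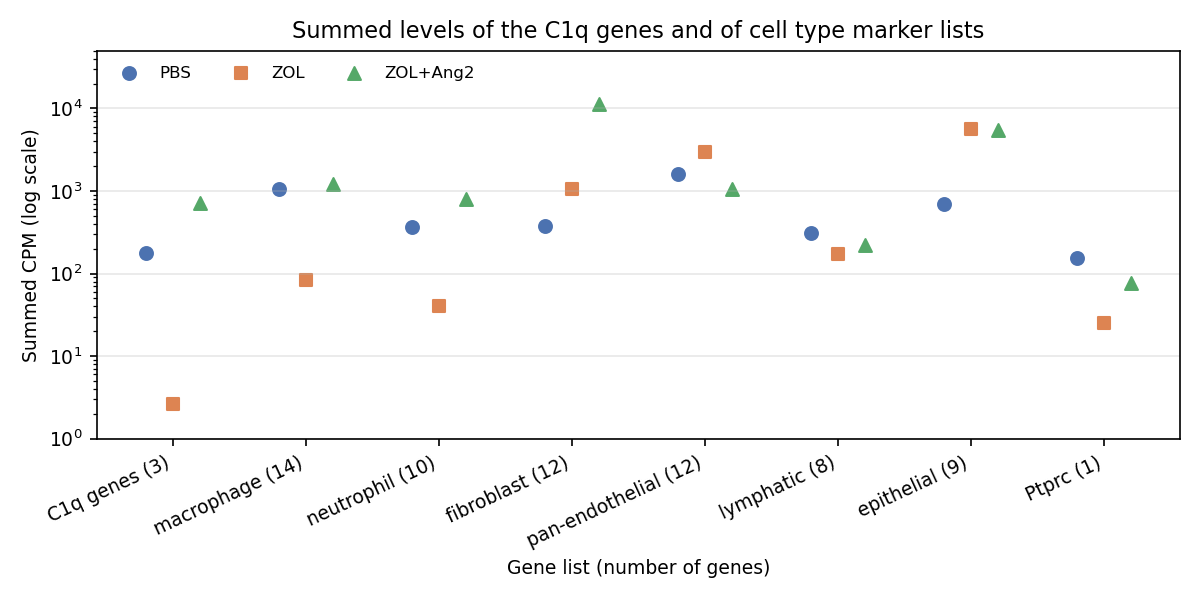
Summed CPM (y axis, log scale) of the 3 C1q genes and of marker lists for cell types (x axis, with the number of genes) in each library, 1 point per library. The C1q, macrophage and neutrophil sums are lowest in ZOL, at 2.61, 83.5 and 40.7 CPM, and the fibroblast sum is highest in ZOL+Ang2.

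Genes with the most similar course were sought for each of the 7 genes among 6980 named genes whose mean reached 20 CPM, by Euclidean distance between log2(CPM + 5) values centred over the 3 libraries. Over 3 points many genes lie close, so this is a description. Nearest to C1qa were Ldlrad4 (distance 0.35), Nckap1l, C1qc (0.83), Ccl8 and Lrrc45, and nearest to C1qc were S100a8 (0.63), C1qa, Col6a3, Taf4b and Lrrc45. C1qb lay apart from its sister chains, at 3.82 from C1qa and 3.01 from C1qc, which ranked 1541 and 415 by nearness of 6979 genes. Its own neighbours were Sfrp4 (0.03), Aebp1, Col1a2, Mmp2 and Emilin2. C1ra lay nearest to Capns1, Gtf2f2, Pbdc1, AW112010 and Aasdhppt, at 0.05 or less. C3 lay nearest to Mphosph6 (0.07), Topors, Ppp1r10, Nup107 and Rnf14. C4b lay nearest to Dusp6 (0.06), Mmp9, Rela, Tuba4a and Tor3a, and Serping1 to Serinc2 (0.10), Pnrc2, Stat3, Cnot8 and Fhl2. Within the 9, C1ra, C3 and Serping1 lay within 0.55 to 1.01 of each other.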

How the data were processed

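The authors deposited 1 table of RPKM values per library, and the total by which they divided is not stated in the sources used here. The submitters' processing notes name fastp, HISAT2 (2.2.1), featureCounts (2.0.6) and mm10. RPKM was multiplied by exon length (GENCODE M21) and divided by the smallest step found in each library. Within a tolerance of 0.01, whole numbers resulted for 96.9% (PBS), 96.3% (ZOL) and 96.2% (ZOL+Ang2) of values above 0, and all were rounded to reads. The sums are 1.50, 0.701 and 0.785 times the totals that the steps imply, so these reads may not be the authors' own counts. The 37 genes without a length were left out. Low counts were even in 61.0%, 53.2% and 51.0% of genes, so mates may have been counted singly; this, like amplification without molecular identifiers, makes the counting intervals too narrow.

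CPM uses TMM factors (1.11, 0.946 and 0.953; trims of 30% and 5%). Log2 ratios carry a prior of 5 CPM. Folds of single genes carry none and have exact 95% binomial intervals given the reads of both libraries, or a floor of 3 reads. No test was run, since each group is 1 library. The design had been fixed for these recovered reads. Named were the 9 genes, listed complement genes whose mean reached 10 CPM, near copies and neighbours, and the 5 genes of nearest course. Of the complement genes first listed, 1 is not reported here and is left out of the counts. Cd59a, Masp2, Colec11, Itgam, Cyp2e1 and other single markers were picked after their values were seen. The members and lists were chosen with earlier results of these data known. The steps were tested on simulated reads. Software was Python 3.11.15, numpy 2.4.6, pandas 2.3.3, scipy 1.17.1 and matplotlib 3.10.9.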

Additional observations from a re-analysis of the deposited data

How the results depend on the processing

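Of 56 recounts of the 9 genes past a threshold over 8 alternatives and 2 chosen after seeing the data (PBS left out of scaling and filter; near copies summed), 53 stayed within 1.5 times the count given. In ZOL+Ang2 against ZOL, a 4-fold threshold left 3 genes higher in place of 5 (6.05% of all genes) and 0 lower in place of 1 (13.5%). Dropping the level filter in that comparison gave 2 lower (20.3% of all genes), since Cd55 then counts. Of 171 recomputed log2 ratios none past 2-fold changed sign, and 21 moved by more than their counting error, 7 of them under median-of-ratios scaling. No paired analysis was possible because each group is 1 library with no number shared as a pairing in the labels. Depth limits the PBS values most, where 3 reads are 1.61 CPM.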
